A study of Mus musculus with 12 samples.

Results

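A set of 9 genes known as targets of glucocorticoid hormones was followed through 12 mouse brain libraries: Hif3a, Zbtb16, Tsc22d3, Fkbp5, Sgk1, Errfi1, Plin4, Mt1 and Mt2. They were taken by gene symbol, 9 of the 43629 gene IDs in the count table, and Hif3a was listed because its p-value by treatment label was among the smallest in these libraries. All 9 were counted in every library and all 9 passed the filter on low counts that kept 19145 genes. The labels name no glucocorticoid treatment, so the name of the group is background knowledge and no test in these data bears on it.

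Glucocorticoids, the adrenal steroids of the daily rhythm and of stress, bind the glucocorticoid receptor, which chaperones hold in the cytoplasm until the hormone arrives. The bound receptor enters the nucleus and, at many sites as a pair, contacts a palindromic DNA element, the glucocorticoid response element, near the genes it activates. In brain the response is known in neurons, astrocytes, oligodendrocytes and vessel cells, and genes such as Fkbp5, Sgk1, Tsc22d3 and Zbtb16 are commonly read as its markers.

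Newborn mice had either phosphate-buffered saline (PBS) or a recombinant adeno-associated virus, a gene delivery vector coding for collagen domain constructs, injected into the brain ventricles. A frozen hemisphere was collected at 3 months of age, and forebrain RNA was made from it. There were 4 groups of 3 libraries, from females and males of either treatment, and the libraries held 39272127 to 52323985 reads. Strain, genotype and the promoter of the construct are not given in the sources used here, the controls received PBS and no vector, and nothing states that each library is a separate animal, so a p-value covers the spread among these libraries, which may be technical.

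Several libraries went against their labels, so each is called below by its label and group comparisons are comparisons of labels. Reads of C1qtnf3, whose collagen domain the construct carries, were 12 to 28 in the 4 libraries labelled PBS female 1, PBS female 3, PBS male 2 and PBS male 3, but 1071 in PBS female 2 and 2675 in PBS male 1. In the collagen domain libraries they were 2612 to 4966, except 23 in female 1 and 8 in female 3. These 4 libraries contradicted their treatment label, 4 contradicted their sex label by sex-linked genes, and 5 contradicted either (the same 4 and collagen domain male 3). Genes with high expression in cerebellum and hindbrain, some of which forebrain also expresses, split the libraries. In PBS female 2, PBS female 3, PBS male 3, collagen domain female 2 and collagen domain male 2 their mean log2 level was 2.05 to 2.79 above the average library, against -2.23 to -0.31 in the other 7. Mitochondrial transcripts took 9.86% of the reads in PBS female 1 and 9.67% in PBS male 3, against 7.37 to 8.83% in the other 10 libraries.

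The 250 bases before each start site were read from RefSeq promoters (mouse build GRCm38.p6) for 8 of the 9 genes, all but Zbtb16. Those of 4 genes are printed: Sgk1 for its full receptor element, Mt1 and Mt2 because their levels varied most closely together, and Hif3a because it differed most between labels in males. The Sgk1 start shown lies at chr10:21993640-21993889 on the plus strand, Mt1 at chr8:94178839-94179088 and Mt2 at chr8:94172368-94172617, both on the plus strand, and Hif3a at chr7:17062428-17062677 on the minus strand. Capitals in Sgk1 mark the letters AGAACA or their reverse complement, the element that binds a single receptor (the receptor's single site), and the full palindrome, AGAACA and TGTTCT with 3 bases of any kind between them. Capitals in Mt1 and Mt2 mark the metal response element cores TGCACNC and TGCGCNC, in either orientation.
Sgk1: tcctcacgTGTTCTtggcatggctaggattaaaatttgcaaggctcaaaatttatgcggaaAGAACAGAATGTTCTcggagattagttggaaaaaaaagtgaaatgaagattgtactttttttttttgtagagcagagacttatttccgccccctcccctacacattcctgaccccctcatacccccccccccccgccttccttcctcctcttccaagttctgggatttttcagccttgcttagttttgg
Mt1: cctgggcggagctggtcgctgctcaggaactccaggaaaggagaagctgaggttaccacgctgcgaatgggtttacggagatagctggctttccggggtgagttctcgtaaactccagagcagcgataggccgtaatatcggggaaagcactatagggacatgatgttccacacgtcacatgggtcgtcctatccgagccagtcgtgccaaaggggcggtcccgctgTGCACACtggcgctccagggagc
Mt2: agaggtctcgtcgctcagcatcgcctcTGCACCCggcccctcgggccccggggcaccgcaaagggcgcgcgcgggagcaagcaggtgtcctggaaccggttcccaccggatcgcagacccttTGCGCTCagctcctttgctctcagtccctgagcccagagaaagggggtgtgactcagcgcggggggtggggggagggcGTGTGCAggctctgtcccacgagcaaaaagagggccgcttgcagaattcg
Hif3a: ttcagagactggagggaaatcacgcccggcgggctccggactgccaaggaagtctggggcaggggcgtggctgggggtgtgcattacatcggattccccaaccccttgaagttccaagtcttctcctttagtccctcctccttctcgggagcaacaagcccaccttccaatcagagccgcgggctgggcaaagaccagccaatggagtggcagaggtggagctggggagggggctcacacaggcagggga

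Both strands of all 32851 promoters of this length were searched for the same letters. The full palindrome stood in 3 of them (0.00913%), and this Sgk1 start, number 5 of 6 listed for the gene, was among these 3. Its match, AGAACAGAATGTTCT, covers bases 189 to 175 before the start, counting the base next to the start as 1, and it contains 2 of the single sites. A looser form, GNACA and TGTNC with 3 bases between them, was found in 0.387% of promoters, in the same place in Sgk1 and once in Mt1, at bases 94 to 82 (not in capitals). The single site alone stood in 16.1% of promoters. TGCACNC was found in 10.4% and TGCGCNC in 12.5% of all promoters. Mt1 held TGCACNC once, Mt2 held it in 2 places and TGCGCNC in 1, and Hif3a held TGCACNC once (GTGTGCA, bases 174 to 168). The hypoxia response core ACGTG stood in 16.6% of promoters, Fkbp5, Sgk1, Errfi1 and Mt1 among them. The Hif3a promoter held none of the 3 receptor motifs. A match of letters is a description and not a binding site.

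The transcription regulators are described first. Hif3a (ENSMUSG00000004328) encodes the third alpha subunit of the hypoxia-inducible factors, some forms of which restrain the other alpha subunits. It was counted 150 to 393 times per library. Its levels as CPM, that is counts scaled to the size of each library, were 6.14, 8.18 and 5.62 in PBS females 1 to 3 and 6.03, 5.23 and 6.38 in collagen domain females 1 to 3. In PBS males 1 to 3 they were 7.11, 6.24 and 8.4, and in collagen domain males 1 to 3 they were 3.78, 4.5 and 3.33. The 3 collagen domain male libraries were thus the lowest of the 12 and did not overlap any other group, whereas the female groups overlapped each other. PBS male 3 and PBS female 2 were the highest.

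Since Hif3a was chosen by its difference between treatment labels, these contrasts are given as descriptions, with no test, for all 9 genes. The log2 fold change of collagen domain over PBS for Hif3a was -0.91 (SE 0.175) in males and -0.18 (SE 0.172) in females, and the difference between them was -0.73 (SE 0.245). Over both sexes it was -0.54 (SE 0.157). Values within the 7 libraries low and the 5 high in hindbrain genes were -0.54 (SE 0.191) and -0.62 (SE 0.211). Both sets are parts of the 12 libraries whose difference chose Hif3a, so their like direction is no separate evidence. Against their treatment label were PBS male 1 and collagen domain females 1 and 3 in the low set, and PBS female 2 in the high set. Without the 4 libraries that contradicted their treatment label the change of Hif3a was -0.64 (SE 0.187) and its 4 and 4 remaining libraries did not overlap. Of all genes tested, 0.695% were lower and 0.893% higher without overlap in that set. Within males, Hif3a was the 1 member of 9 whose collagen domain libraries all lay below the PBS libraries, where 2.36% of all genes did, and 0 of 9 lay above without overlap (2.59% of all genes). Gm11942, annotated as a processed pseudogene, was at 27.3 to 42.4 CPM in the libraries PBS male 1, PBS male 2 and collagen domain males 1 to 3, and at 0.907 to 2.21 CPM in the other 7. Hif3a was at 3.33 to 7.11 CPM in the first set and at 5.23 to 8.4 CPM in the second.

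Zbtb16 (ENSMUSG00000066687) encodes PLZF, a zinc finger repressor. Its CPM were 16.1, 30.8 and 20.7 in PBS females 1 to 3 and 25.4, 22.7 and 19.6 in collagen domain females. They were 24, 29.6 and 19.8 in PBS males 1 to 3 and 30.6, 20.8 and 24.9 in collagen domain males. All 4 groups overlapped, and the labels left a log2 fold change of 0.03 (SE 0.157), with 0.00 (SE 0.232) in females and 0.06 (SE 0.232) in males. Zbtb16 was at its lowest of the 12 libraries in PBS female 1, where several other members were high.

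Tsc22d3 (ENSMUSG00000031431) encodes GILZ, a leucine zipper protein that carries part of the anti-inflammatory action of glucocorticoids. Its CPM were 106, 88.8 and 94.3 in PBS females 1 to 3 and 86.7, 84.5 and 92.1 in collagen domain females. They were 88.8, 79.5 and 122 in PBS males 1 to 3 and 66, 85.6 and 75 in collagen domain males. The 2 libraries rich in mitochondrial reads, PBS male 3 and PBS female 1, were the highest, and collagen domain males 1 and 3 the lowest. The log2 fold change of Tsc22d3 by label was -0.25 (SE 0.104), with -0.14 (SE 0.147) in females and -0.36 (SE 0.147) in males. Without both libraries over 9% mitochondrial reads it was -0.11 (SE 0.0707).

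The next 3 members act in the receptor's own complex and in signalling. Fkbp5 (ENSMUSG00000024222) encodes FKBP51, a co-chaperone that lowers the receptor's affinity for hormone and so closes a feedback loop. Its levels were among the steadiest of the 9, from 27.5 to 39.6 CPM with a median of 33.5, with PBS female 2 the highest and collagen domain male 3 the lowest. Its groups overlapped in both sexes, and the log2 fold change of Fkbp5 was -0.11 (SE 0.0689) over both sexes, -0.10 (SE 0.102) in females and -0.13 (SE 0.102) in males.

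Sgk1 (ENSMUSG00000019970) encodes a serum- and glucocorticoid-regulated kinase of ion transport. Its CPM were 110, 61.1 and 66.8 in PBS females 1 to 3 and 81.6, 58.2 and 82.9 in collagen domain females. They were 82, 74.3 and 115 in PBS males 1 to 3 and 59.4, 102 and 64.7 in collagen domain males. PBS male 3, PBS female 1 and collagen domain male 2 were the only libraries above 100 CPM, and the groups overlapped in both sexes. The log2 fold change of Sgk1 was -0.18 (SE 0.187) and turned to 0.08 (SE 0.163) without both libraries over 9% mitochondrial reads. It was -0.37 (SE 0.0592) within the 7 libraries low in hindbrain genes and -0.16 (SE 0.0764) within the 5 high ones.

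Errfi1 (ENSMUSG00000028967) encodes MIG6, a feedback inhibitor of the epidermal growth factor receptor. It varied least, from 27.6 CPM in collagen domain male 3 to 36 CPM in PBS male 3, with a median of 31.5. The 12 libraries lay within 1.3-fold of each other, and the log2 fold change of Errfi1 by label was -0.05 (SE 0.0626).

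The remaining members are a lipid droplet protein and 2 metal-binding proteins. Plin4 (ENSMUSG00000002831) encodes perilipin 4, a coat protein of lipid droplets. Its CPM were 16.2, 15.7 and 17.3 in PBS females 1 to 3 and 9.32, 10.5 and 9.85 in collagen domain females. They were 11.2, 9.02 and 20.7 in PBS males 1 to 3 and 5.92, 13.7 and 5.21 in collagen domain males. The female groups did not overlap, whereas in males collagen domain male 2 lay above PBS males 1 and 2. The ratio of the highest to the lowest library was 3.97, the widest of the 9 genes.

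The log2 fold change of Plin4 was -0.72 (SE 0.243) over both sexes, -0.73 (SE 0.358) in females and -0.72 (SE 0.361) in males. It was -0.82 (SE 0.102) within the 7 libraries low in hindbrain genes and -0.64 (SE 0.0986) within the 5 high ones. Collagen domain male 2 and PBS male 3, the libraries that moved the male value most when left out, are both high in hindbrain genes: without PBS male 3 the male change of Plin4 was -0.28, and without collagen domain male 2 it was -1.29. In females 2 of the 9 members, Plin4 and Mt1, were lower in all collagen domain libraries than in all PBS libraries, against 2.62% of all genes, and 0 of 9 were higher without overlap, against 2.93%. Of the female libraries, however, 3 (PBS female 2 and collagen domain females 1 and 3) contradicted their treatment label.

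Mt1 (ENSMUSG00000031765) and Mt2 (ENSMUSG00000031762) encode metallothioneins, small cysteine-rich proteins that bind zinc and copper and are induced by metals as well as by glucocorticoids. CPM of Mt1 were 142, 109 and 107 in PBS females 1 to 3 and 98, 103 and 106 in collagen domain females. They were 119, 90.1 and 186 in PBS males 1 to 3 and 92.5, 119 and 105 in collagen domain males. PBS male 3 and PBS female 1 stood above all other libraries, whose range was 90.1 to 119.

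Mt2 had the same libraries at the top. Its CPM were 85.5, 66.9 and 62.2 in PBS females 1 to 3 and 57.5, 64.3 and 59.3 in collagen domain females. They were 70.6, 52.4 and 124 in PBS males 1 to 3 and 51, 69.4 and 62.6 in collagen domain males. The other 10 libraries ranged from 51 to 70.6 CPM for Mt2. By label the log2 fold changes were -0.27 (SE 0.147) for Mt1 and -0.34 (SE 0.176) for Mt2. Without both libraries over 9% mitochondrial reads they were -0.03 (SE 0.0857) and -0.05 (SE 0.0988). Whether reads were split between these paralogs in counting is not stated.

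**Figure D1:**
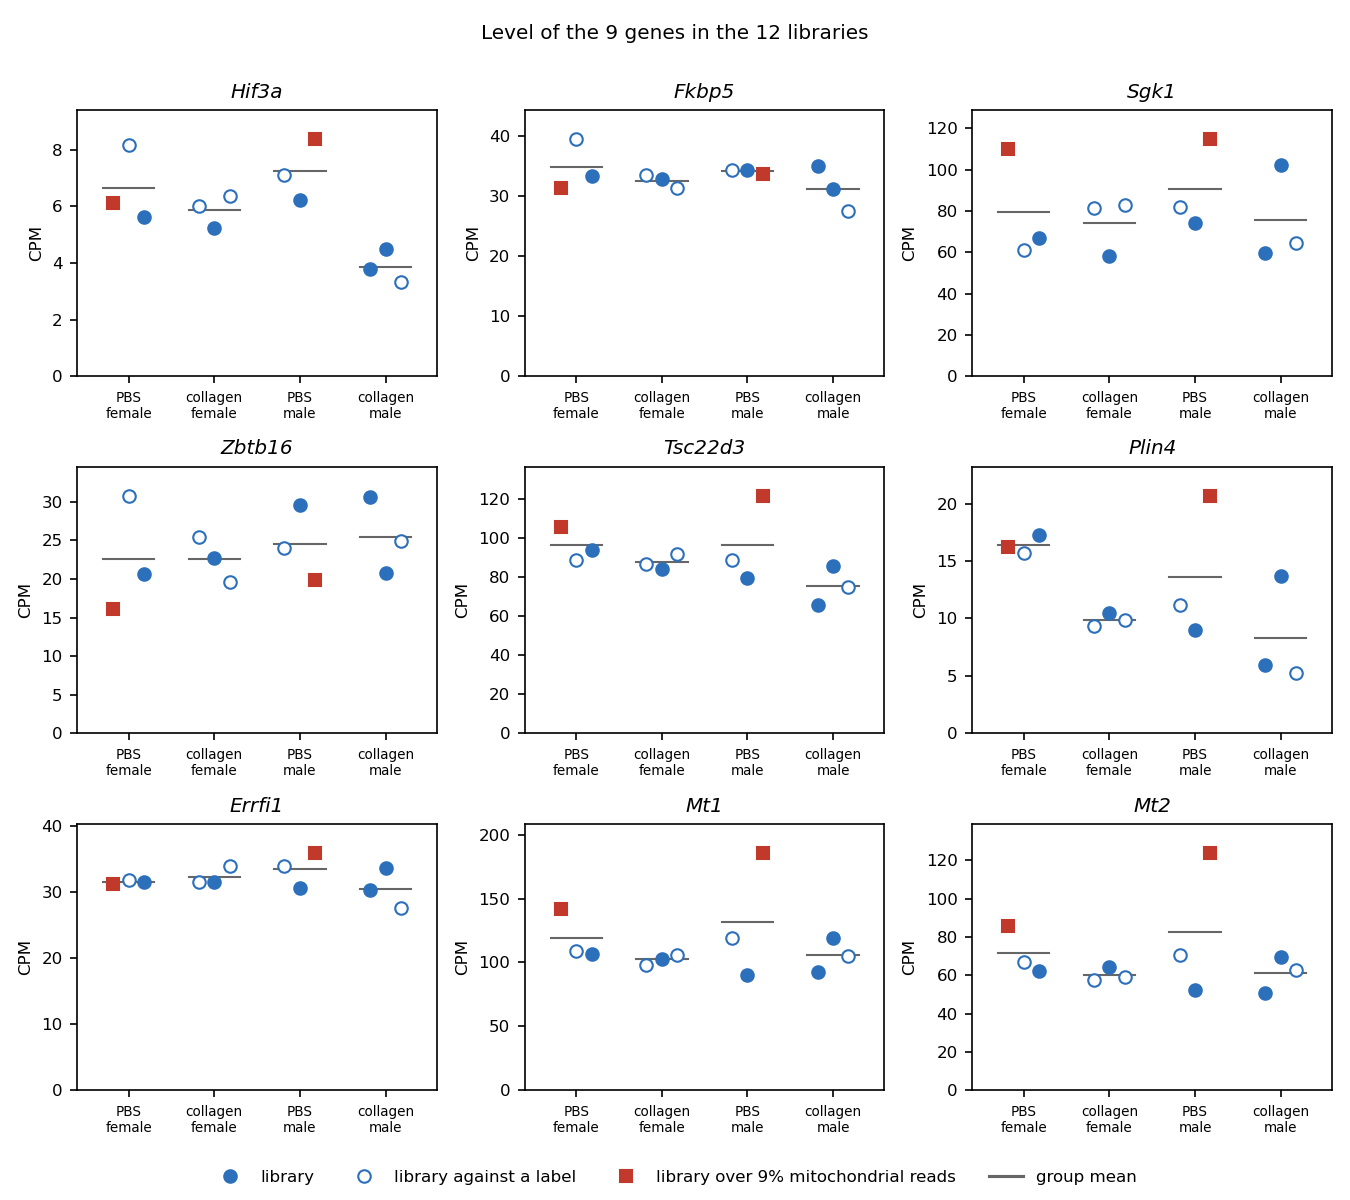
Level of each gene in CPM (y axis) in the 12 libraries by labelled group (x axis); circles are libraries, open where the library contradicts a label, red squares are both libraries over 9% mitochondrial reads, and lines are group means. The 3 collagen domain male libraries were lowest for Hif3a, and the red squares stood highest for Sgk1, Tsc22d3, Mt1 and Mt2.

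By label, 8 of the 9 genes had a log2 fold change below 0, with a median of -0.245, beside a median of 0 over all 19145 genes, of which 49.9% were below 0. Zbtb16 was the exception. Hif3a was chosen by this contrast and the members with earlier results of these data known, so these values are descriptions. No member's libraries separated by label over all 12 (0 of 9), where 0.0366% of all genes were lower and 0.0313% higher without overlap. Over all genes edgeR's quasi-likelihood test called 0% at an adjusted p under 0.05 for treatment over both sexes, within females, within males and for the interaction, with 354, 280, 325 and 263 genes at an unadjusted p under 0.05. DESeq2 called 0, 0, 3 and 1. Evenly spread p-values would put 957 genes under 0.05 in each contrast, and every edgeR count was below that. The cause was not tested, and the share of 0% is not read as absence of a difference.

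Without the 5 libraries that contradicted a label the median of the members was -0.363, beside -0.004 over all genes, and 8 of 9 were again below 0. The values there were -0.57 (SE 0.194) for Hif3a, -0.65 (SE 0.358) for Plin4, -0.36 (SE 0.172) for Tsc22d3 and 0.14 (SE 0.191) for Zbtb16. Hif3a was the 1 member without overlap between its 3 collagen domain and 4 PBS libraries, where 2.65% of all genes were lower and 3.66% higher. Over all genes edgeR called 0.0102% for treatment without these 5 libraries and 0.0101% without the 4 against their treatment label. Those 4 were left out by their C1qtnf3 reads. A call of C1qtnf3 in either set would follow from that choice, and nothing is read from these calls. Without both libraries over 9% mitochondrial reads, which are both labelled PBS, the median of the members was -0.108, and 0 of 9 separated by label (0.209% of all genes were lower and 0.24% higher). Hif3a at -0.51 (SE 0.151) and Plin4 at -0.52 (SE 0.248) then stood apart from the other 7, which lay between -0.15 and 0.08.

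**Figure D2:**
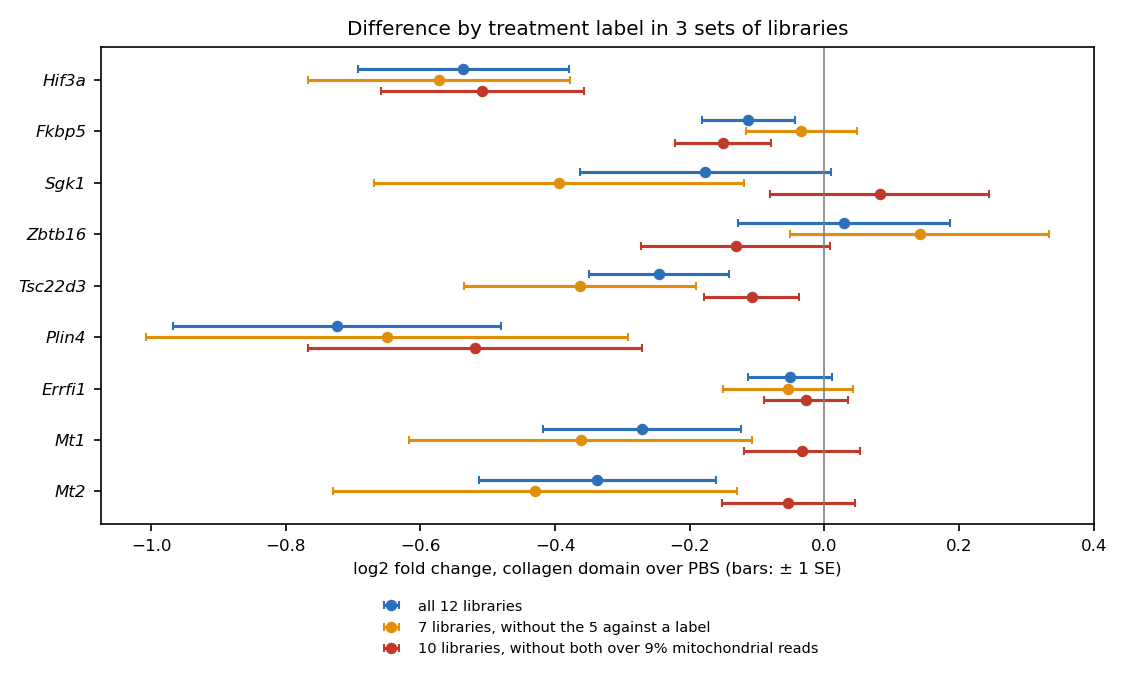
Log2 fold change of collagen domain over PBS by label (x axis, points, bars ± 1 SE) for each gene (y axis) in all 12 libraries, without the 5 that contradict a label and without both over 9% mitochondrial reads. Mt1 and Mt2 moved from -0.27 and -0.34 to -0.03 and -0.05 when both libraries over 9% mitochondrial reads were left out, whereas Hif3a stayed between -0.57 and -0.51.

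Within labelled sexes, 8 of 9 members were below 0 in males, with a median of -0.319, and 7 of 9 in females, with a median of -0.135. The difference between the sexes was widest for Hif3a, at -0.73 (SE 0.245), and next for Tsc22d3, at -0.22 (SE 0.207). For Plin4 it was 0.02 (SE 0.507). The male values of the metallothioneins came from PBS male 3, without which they were 0.02 for Mt1 and -0.01 for Mt2, while that of Hif3a remained at -0.79.

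**Figure D3:**
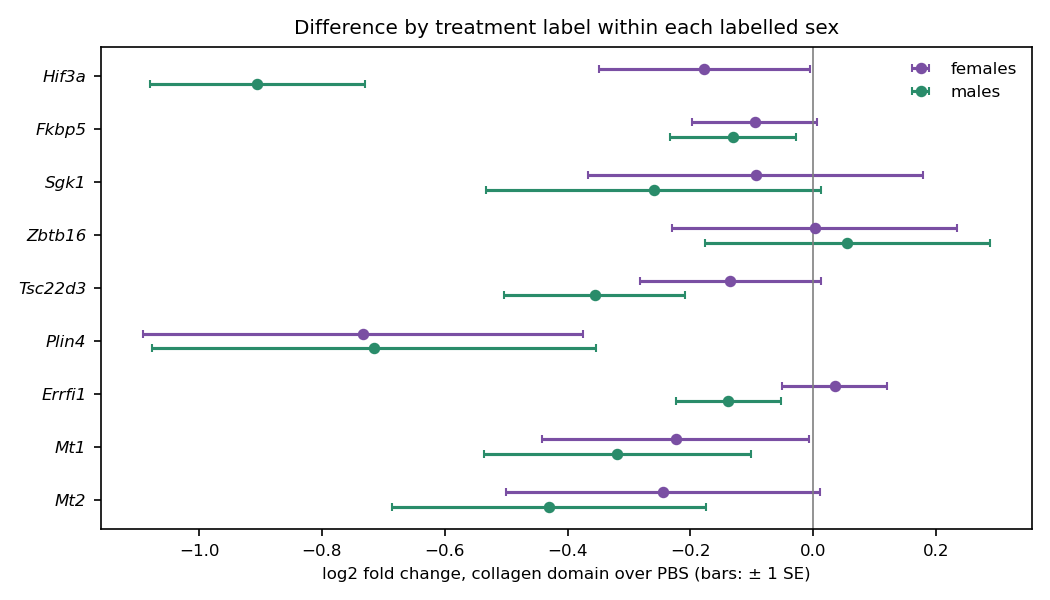
Log2 fold change of collagen domain over PBS (x axis, points, bars ± 1 SE) for each gene (y axis) within females and within males as labelled. Hif3a was at -0.91 in males and -0.18 in females, while Plin4 was at -0.72 and -0.73.

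The direct comparison of males with females did not itself enter the choice of members, and it was tested. Hif3a, however, was chosen by a treatment difference that was widest within labelled males. Its male over female value is therefore not independent of that choice and is a description. Of the 9 genes 0 passed, as did 0% of all genes by edgeR's quasi-likelihood test, with 377 genes at an unadjusted p under 0.05 and 8 called by DESeq2. Evenly spread p-values would put 957 genes under 0.05. Each member had an adjusted p of 1, with edgeR's test and Benjamini-Hochberg adjustment. The largest estimates, male over female, were -0.26 (SE 0.242) for Plin4 and -0.23 (SE 0.157) for Hif3a, and 4 of 9 were below 0. All 9 genes overlapped between the sexes, where 0.0627% of all genes were lower and 0.0418% higher in males without overlap. In data simulated with every sex label taken as right, this comparison recovered 94% of genes changed 2-fold and 64.2% of those changed 1.5-fold. Since 4 of the 12 real libraries contradicted their sex label, these shares do not carry over to them. That 0 members passed is therefore not read as the sexes being alike.

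Most members varied more between libraries than genes of like level. Among the 1000 genes nearest in mean level, the SD of log2 CPM over the 12 libraries stood at percentile 98.2 for Plin4, 97.1 for Sgk1 and Mt2, 95 for Mt1, 91.8 for Hif3a, 90.4 for Zbtb16 and 88.4 for Tsc22d3. Fkbp5 at 51.4 and Errfi1 at 32.7 did not stand out. These percentiles are descriptions and include whatever the labels contribute.

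PBS female 1 and PBS male 3, the libraries over 9% mitochondrial reads, were at the upper end for several members. For 4 of the 9 members (44.4%), Sgk1, Tsc22d3, Mt1 and Mt2, both lay above all other 10 libraries, and for 0 of 9 both lay below. Without them the range of Mt1 was 90.1 to 119 CPM and that of Mt2 51 to 70.6, while that of Hif3a was still 3.33 to 8.18 and that of Plin4 5.21 to 17.3. Over all genes the shares were 13.9% above and 10.4% below, so these libraries differed widely from the rest. These libraries differ in hindbrain genes, PBS female 1 being low and PBS male 3 high, and neither contradicts its labels. The part of the mitochondrial share in these levels was not tested beyond the fits without both libraries.

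**Figure D4:**
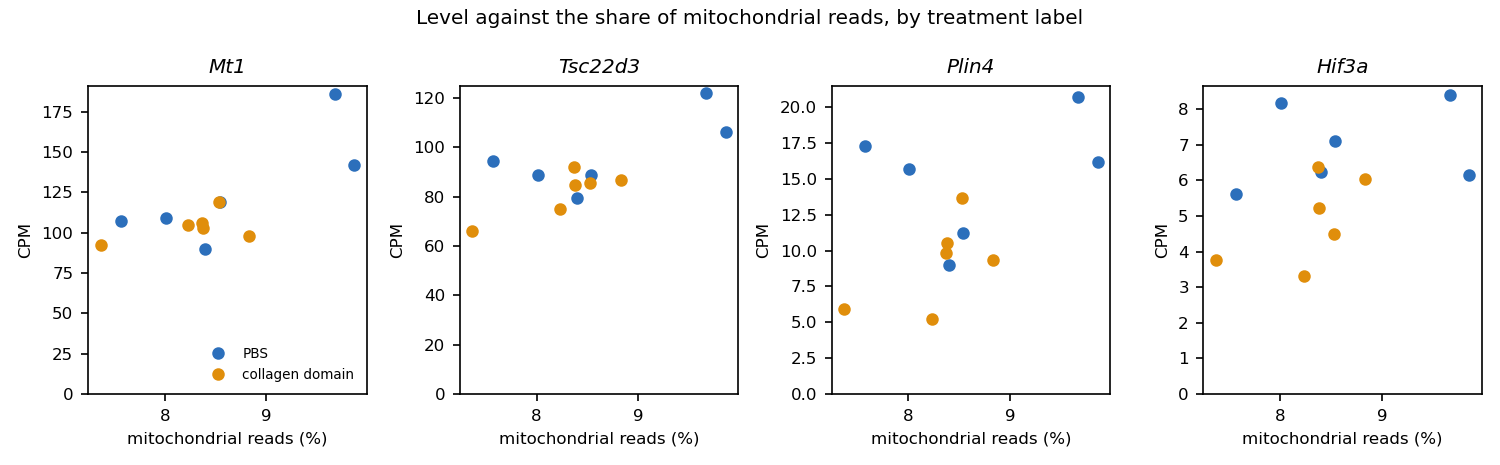
Level in CPM (y axis) of Mt1, Tsc22d3, Plin4 and Hif3a against the percentage of reads from mitochondrial genes (x axis) in the 12 libraries, coloured by treatment label. Both points beyond 9% were the highest for Mt1 and Tsc22d3, while for Plin4 and Hif3a other PBS libraries lay between them.

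Of 24 further glucocorticoid targets, 7 were above the other 10 libraries in both (Klf15, Pdk4, Nfkbia, Sult1a1, Cebpd, Map3k6 and Sesn1) and 0 were below. Sult1a1, a sulfotransferase, was at 12.2 and 10.2 CPM in PBS female 1 and PBS male 3, against 4.75 to 7.44 in the others. Of the relatives of Tsc22d3, Tsc22d1, Tsc22d2 and Tsc22d4, 3 of 3 were above in both. Mt3, the brain metallothionein, was at 202 and 204 CPM, against 139 to 170. Of 6 metallothionein and metal genes, Mt3 among them, 1 was above and 1 below. Of 15 genes of the receptor, its chaperones and its cofactors, 3 were above in both and 4 below. Of 9 genes of the hypoxia-inducible factors 0 were above and 2 below, and of 12 hypoxia targets 1 was above and 2 below. Of the 3 relatives of Sgk1 and the 3 other perilipins, 0 were above and 0 below. Over all genes the shares were 13.9% above and 10.4% below.

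Levels of the members were compared with each other across the 12 libraries, as Pearson's r of log2 CPM with permutation p (100000 resamples, two-sided) adjusted over the 36 pairs. Of these pairs 26 were positive and 17 passed, 14 of them positive. The share of passing pairs among all genes was not computed, so 17 of 36 is not read as a mark of this set. Some passing pairs ranked behind many of the 15482 genes compared by r. Mt2 ranked 1022 for likeness to Sgk1, and Sgk1 ranked 1082 for likeness to Mt2. Others ranked high, such as Plin4 at 17 for Tsc22d3 and Tsc22d3 at 7 for Plin4. Mt1 and Mt2 were the closest pair (r = 0.99, permutation p = 1e-05, the smallest these resamples can give, adjusted p = 0.00036), with rho at 0.92 (permutation p = 6e-05, adjusted p = 0.00216). Their r was 0.95 without the 2 libraries farthest from the median of Mt1 (PBS female 1 and PBS male 3), and 0.99 within the 7 libraries low in hindbrain genes.

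Tsc22d3 passed with 7 of the 8 other members. With Plin4 its r was 0.86 (permutation p = 0.00026, adjusted p = 0.00468) and rho 0.87 (permutation p = 0.00052, adjusted p = 0.00936). With Mt1 its r was 0.86 (permutation p = 0.00052, adjusted p = 0.00468) and rho 0.76 (permutation p = 0.00642, adjusted p = 0.0578). With Mt2 its r was 0.86 (permutation p = 0.00047, adjusted p = 0.00468) and rho 0.62 (permutation p = 0.0378, adjusted p = 0.0904). The metallothioneins thus moved with Tsc22d3 by value more than by rank order. Leaving out PBS male 3 and collagen domain male 1, farthest from its median, left r at 0.78 with Plin4, 0.7 with Mt1 and 0.64 with Mt2. Within the 7 libraries low in hindbrain genes they were 0.91, 0.79 and 0.79, and Tsc22d3 and Sgk1, at 0.72 over all 12 (permutation p = 0.00604, adjusted p = 0.0272, rho = 0.65), were at 0.98 there but at 0.39 without PBS female 1 and PBS male 3.

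Hif3a was chosen by its difference between treatment labels in these same libraries. Its relations with other members are therefore not independent of that choice and are descriptions. Hif3a passed with 3 members. Its r was 0.74 with Plin4 (permutation p = 0.00598, adjusted p = 0.0272), where rho was 0.54 (permutation p = 0.0757, adjusted p = 0.13). It was 0.73 with Tsc22d3 (permutation p = 0.00724, adjusted p = 0.029), where rho was 0.69 (permutation p = 0.0167, adjusted p = 0.0652). It was 0.71 with Errfi1 (permutation p = 0.00996, adjusted p = 0.0299), where rho was also 0.71 (permutation p = 0.013, adjusted p = 0.0652). These relations rest in large part on collagen domain males 1 and 3, without which r was 0.32, 0.49 and 0.36. With Fkbp5 its r was 0.62 and did not pass (permutation p = 0.0322, adjusted p = 0.061, rho = 0.48). Within the 7 libraries low in hindbrain genes, which include collagen domain males 1 and 3, r of Hif3a was 0.85 with Plin4, 0.73 with Tsc22d3 and 0.85 with Errfi1, and none of the 3 passed there (exact permutation, adjusted p = 0.0627, 0.141 and 0.0582).

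Zbtb16 had a negative r with 7 of the 8 others, and 3 of these passed. Its r was -0.71 with Tsc22d3 (permutation p = 0.00837, adjusted p = 0.0299), -0.69 with Sgk1 (permutation p = 0.0132, adjusted p = 0.0317) and -0.64 with Mt1 (permutation p = 0.0201, adjusted p = 0.0426). By rho these were -0.68, -0.68 and -0.62 (permutation p = 0.0177, 0.0181 and 0.0371, adjusted p = 0.0652, 0.0652 and 0.0904). Within the 7 libraries low in hindbrain genes these were -0.88, -0.85 and -0.87, and none of them passed there (exact permutation, adjusted p = 0.0548, 0.0627 and 0.0548). Without the 2 libraries farthest from the median of the first gene of each pair they were -0.77 and -0.64 with Tsc22d3 and Mt1 (PBS females 1 and 2 left out) and -0.49 with Sgk1 (PBS female 1 and PBS male 3 left out). Fkbp5, by contrast, passed with none of the 8 others, and its r ranged from -0.23 with Sgk1 to 0.62 with Hif3a.

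The number of pairs that pass rests on few libraries. Without PBS male 3 it was 2, without collagen domain male 1 it was 6 and without PBS female 1 it was 11. Without both libraries over 9% mitochondrial reads 1 pair passed, Mt1 with Mt2 (r = 0.95, adjusted permutation p = 0.00216), although Tsc22d3 with Plin4 kept r at 0.82 (adjusted permutation p = 0.0598). All 17 pairs kept their sign both in those 10 libraries and in the 7 low in hindbrain genes, and by Spearman's rho 3 of the 36 passed.

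**Figure D5:**
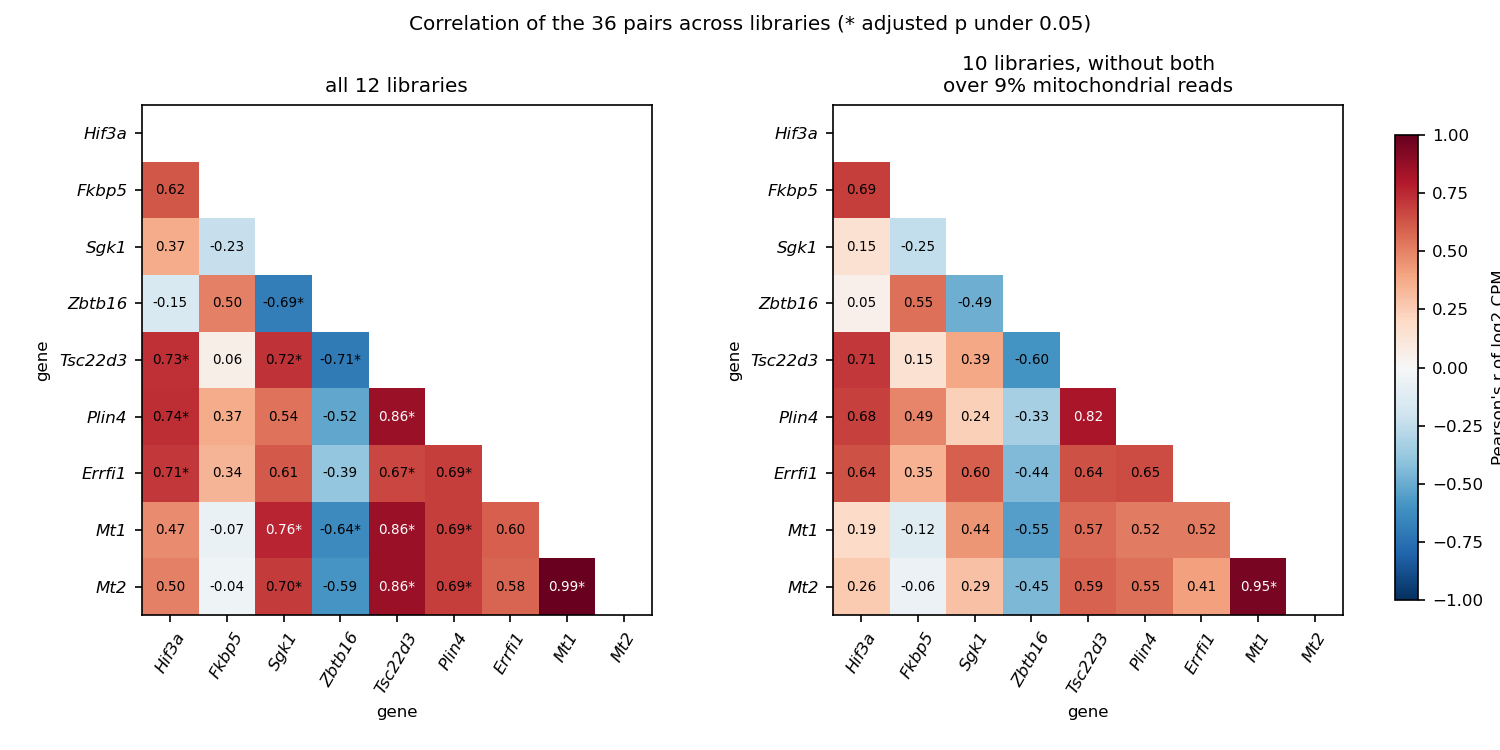
Pearson's r of log2 CPM for the 36 pairs of the 9 genes (both axes are genes, colour is r) in all 12 libraries and in the 10 without both over 9% mitochondrial reads; asterisks mark an adjusted permutation p under 0.05. Zbtb16 was negative with Sgk1, Tsc22d3, Plin4, Errfi1, Mt1 and Mt2 in both panels, and 17 pairs passed in the left panel but 1 in the right.

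For each member the 3 most similar genes were sought among 15482 others with a mean of at least 1 CPM, by r over 12 libraries, which share depth and tissue, so these are descriptions. Mt2 was first for Mt1 and Mt1 for Mt2, both at 0.99, followed by the cytochrome gene Cyp2j9 at 0.98 and 0.99. The third was Ino80c for Mt1 and Prkra for Mt2, both at 0.97. Tsc22d3 was nearest to Kcmf1, Gjb6 (an astrocyte connexin) and Coprs, all at 0.92, and Plin4 to Mbtps2 at 0.91, Sdc4 at 0.9 and Tesk2 at 0.89. Sgk1 was nearest to Fez1 and Cdkn2aipnl at 0.92 and Ccdc126 at 0.91. Zbtb16 was nearest to Pold3 at 0.9, Znrf3 at 0.88 and Mllt10 at 0.85, and Errfi1 to Suclg2 at 0.9, Rrm2 at 0.89 and Gm14403 at 0.87. Hif3a was nearest to Fdxacb1 at 0.86, Spc24 at 0.85 and Gm13205 at 0.84, and Fkbp5 to Prkx at 0.82, Tti2 at 0.79 and Arhgap27 at 0.79. Of the members' own pairs, Tsc22d3 ranked 7 among all genes for likeness to Plin4, and Plin4 ranked 17, Mt2 19 and Mt1 23 for likeness to Tsc22d3. For Hif3a, Plin4 ranked 23, Tsc22d3 29 and Errfi1 43. From the other side the ranks were lower: Tsc22d3 ranked 163 for Mt1 and 181 for Mt2. Hif3a ranked 106 for Errfi1, 128 for Plin4 and 371 for Tsc22d3. Other pairs of members ranked far down, such as Fkbp5 at 7072 for Tsc22d3 and Tsc22d3 at 15416 for Zbtb16.

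Other genes of the same pathways gave no call by label. Of the 15 measured genes of the receptor, its chaperones and its cofactors, 0 passed edgeR's test in either direction for treatment over both sexes, 6 were below 0 and the median log2 fold change was 0.008. The genes of smallest p there were Ncoa3, a coactivator, at 0.13 (SE 0.0973), Hsd11b1, which regenerates active hormone, at -0.24 (SE 0.207), Ptges3, the co-chaperone p23, at -0.10 (SE 0.0939), and Ncoa2 at 0.07 (SE 0.0615). Of 24 further glucocorticoid targets 0 passed and 19 were below 0, with a median of -0.071. Sult1a1 was at -0.48 (SE 0.17), Anxa1, the anti-inflammatory annexin, at -0.26 (SE 0.156) and Klf15 at -0.12 (SE 0.0785). Lcn2, lipocalin 2, was at 2.28 (SE 0.981), from levels of 0.0943 to 6.17 CPM with a median of 0.149 in the 10 libraries at or under 9% mitochondrial reads, so few libraries set this value. Without both libraries over 9% mitochondrial reads 13 of the 24 were below 0, with a median of -0.018.

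Of 9 measured genes of the hypoxia-inducible factors and their regulators, 0 passed and 2 were below 0, Hif1an, which blocks the factors' activation, being at 0.14 (SE 0.0761). Of 12 hypoxia targets 0 passed and 7 were below 0, and Vegfa, the vessel growth factor, was at 0.29 (SE 0.0851). The perilipins beside Plin4 were at 0.11 (SE 0.109) for Plin2, 0.14 (SE 0.185) for Plin5 and -0.04 (SE 0.1) for Plin3. Mt3 was at -0.13 (SE 0.103). The relatives of Tsc22d3 were below 0 in 3 of 3 cases with a median of -0.075, Tsc22d2 being at -0.14 (SE 0.0603), and those of Sgk1 in 3 of 3 cases with a median of -0.035, and 0 genes of either family passed.

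Markers of cell types and regions were read beside these values, since in bulk tissue fewer cells of a type and less RNA per cell cannot be told apart. By treatment label the median log2 fold change was -0.013 over 9 astrocyte, -0.019 over 9 oligodendrocyte, 0.034 over 9 endothelial and -0.038 over 9 microglial markers. It was 0.344 over 10 choroid plexus markers (10 above 0), 0.443 over 12 hypothalamic markers (11 above 0), -0.226 over 15 cerebellum and hindbrain markers (15 below 0) and -0.221 over 6 erythroid markers (5 below 0). None of these lists had a gene past the threshold, and their part in the differences of Hif3a and Plin4 was not tested beyond the values given within the hindbrain sets.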

How the data were processed

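The authors deposited a table of read counts per Ensembl gene ID, not normalized, for 12 poly(A) RNA libraries of mouse forebrain (TruSeq version 2, paired 75-base reads, per the labels' protocols). The genome build GRCm39, STAR and DESeq2 appear by name, per the submitters' processing notes, without version or role. The counter and the strand setting are not given in the sources used here, and the kit does not mark strand, so overlapping antisense genes cannot be told apart. IDs took symbols from GENCODE M21 (42462 of 43629 matched, and the others held 0.144% of reads). All count columns were matched by library name.

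Counts were fitted in R 4.3.3 with edgeR 4.0.16 (filterByExpr, 19145 genes kept, TMM, robust quasi-likelihood F-test, Benjamini-Hochberg, threshold 0.05). An additive fit of sex and treatment gave the treatment difference over both sexes and the sex difference, and a fit of the 4 groups gave the values within a sex. CPM uses TMM-scaled library sizes, and log2 CPM a prior count of 2. DESeq2 1.42.0 and limma 3.58.1 (voom) were alternatives, as were other scaling, filters, a threshold of 0.1, a replicate block and fits without libraries. A further alternative took the mean level of cerebellum and hindbrain genes as a covariate. No library repeated another (chi-square per degree of freedom 7 to 109 over all pairs). Both edgeR designs and the contrast in males were tested on simulated counts with changes seeded by label, every label being taken as right. Plots used matplotlib 3.10.9 under Python 3.11.15.

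The members and the gene lists were chosen with earlier results of these data known. The treatment label was checked at 1000 C1qtnf3 reads, with PBS libraries taken to lie under this number and collagen domain libraries at or over it. Named genes are the 9 members, for each the 3 genes of highest r, and from each list those past the threshold or up to 4 of smallest p. The genes named as standing above in both libraries over 9% mitochondrial reads, Gm11942 and the fits without those libraries or within the 5 libraries high in hindbrain genes were chosen after seeing the data.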

Additional observations from a re-analysis of the deposited data

How the results depend on the processing

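Counts of genes called for treatment were 0 by edgeR in all 4 contrasts. DESeq2 called 3 within males and 1 for the interaction. Hif3a was among the 3, in the contrast that chose it, so nothing is read from that call. Without the 4 libraries against their treatment label edgeR called 2 over both sexes, 1 in females and 1 in males, and without the 5 against a label also 2, 1 and 1. Leaving out each library in turn gave 0 to 1 in males. Male against female went from 0 to 8 with DESeq2, 1 without the 4 libraries, 8 without the 5, 4 in the 7 libraries low in hindbrain genes, 1 in the 5 high ones, 4 without both libraries over 9% mitochondrial reads and 0 to 5 leaving out each in turn. The cause was not tested.

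Of the 36 pairs, 17 passed by r, 3 by rho, 2 in the 7 libraries low in hindbrain genes, 1 without both libraries over 9% mitochondrial reads, and 2 to 19 leaving out each library; fewer libraries also give less precision.

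Some male over female log2 fold changes changed sign, those of Plin4 and Hif3a, the largest in size at -0.26 and -0.23, among them. Without the 5 libraries Hif3a was at 0.06 and Fkbp5 at 0.05, and without the 4 Fkbp5 was at 0.01. In the 7 libraries Fkbp5 was at 0.02, Sgk1 at -0.44, Errfi1 at -0.09, Mt1 at -0.20 and Mt2 at -0.22. In the 5 libraries Hif3a was at 0.09, Zbtb16 at -0.26, Tsc22d3 at 0.26 and Plin4 at 0.36. Without both libraries over 9% mitochondrial reads Errfi1 was at -0.04 and Mt2 at -0.02, and with no filter Errfi1 at 0.00. Leaving out each library gave -0.08 to 0.00 for Fkbp5, -0.01 to 0.24 for Sgk1, -0.03 to 0.04 for Errfi1, -0.06 to 0.18 for Mt1 and -0.09 to 0.21 for Mt2. None passed the threshold.

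The replicate numbers did not pair the samples: deviations of same-numbered libraries correlated at -0.39 to 0.66 (mean 0.06), and 5 of 12 libraries matched best with their own number. With the number as a replicate block 0 genes were called in each contrast, and Hif3a was at -0.54 (SE 0.169) over both sexes. RLE factors, voom, the filters and a threshold of 0.1 left every count of calls at 0. Depth limits Hif3a most, with 150 reads in its lowest library.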

Other observations

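Immediate early genes, which answer neuronal activity and handling within a short time, were read beside the members. By treatment label over all 12 libraries 8 of 11 were below 0, with a median log2 fold change of -0.086, and 0 passed edgeR's test. Within females 10 of 11 were above 0, with a median of 0.314, and within males 11 of 11 were below 0, with a median of -0.509, and 0 passed in either sex or for the difference between the sexes. Without the 5 libraries against a label 11 of 11 were below 0, with a median of -0.762 beside -0.004 over all genes. Again 0 passed the adjusted threshold, with 6 at an unadjusted p under 0.05 by edgeR's test, beside 5.79% of all genes. Collagen domain female 3, where their mean level was highest, is among the libraries left out there. So is PBS male 1, where it was next highest at 0.81 above the average library. Their mean log2 level differed between libraries from -0.94 in collagen domain male 2 to 1.29 in collagen domain female 3 about the average library. PBS female 1 and PBS male 3, where Mt1, Mt2, Sgk1 and Tsc22d3 were highest, lay at 0.49 and -0.38.

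Of 14 circadian clock genes 7 were below 0 and 7 above over all 12 libraries, with a median of 0.009 and 0 past the threshold. Arntl, the clock activator BMAL1, was at 0.15 (SE 0.0611) and Ciart, a repressor, at -0.16 (SE 0.105).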
